A study of Homo sapiens with 5 samples.

Results

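The transcript row uc002mpr.4, of 404 codons, is taken here as the coding transcript of QTRT1, the gene knocked out in 1 of the 5 libraries, together with every row within 10 rows of it whose count is nested in its own. A row counted as nested where it was no longer than 404 codons, held at least 1 count, and did not exceed the uc002mpr.4 count in any library. By this rule 5 shorter rows joined it, uc060tlp.1, uc060tlq.1, uc060tlr.1, uc060tls.1 and uc060tlu.1, which gives 6 rows of the 182398 in each table. The row was selected on its length and on its low footprint count in the QTRT1 knockout library, so its difference from the other libraries is given as a description with no test.

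The libraries are ribosome footprints of HEK293T cells, a transformed line from human embryonic kidney: QTRT1 KO (1 library), QTGAL KO (2 libraries) and QTMAN KO (2 libraries). No library of unmodified cells was analysed here, so the QTGAL and QTMAN knockouts, in which the QTRT1 gene is not the labelled target, serve as the comparison. The labels do not say whether a knockout is 1 clone or a pool, how the gene was cut, or whether the 2 libraries of a genotype came from separate cultures, so the spread between them may be technical. Library totals ran from 12002044 to 25291912 counts, with 13918194 in the QTRT1 KO library.

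QTRT1 is the catalytic subunit of the tRNA-guanine transglycosylase, which works with its partner QTRT2. The enzyme exchanges the guanine at the wobble position of the anticodon for queuine, a base that animals obtain from food and gut bacteria, in the tRNAs that carry aspartate, asparagine, histidine and tyrosine. QTGAL and QTMAN act after it: QTGAL adds galactose to the queuosine of the tyrosine tRNA and QTMAN adds mannose to that of the aspartate tRNA. A ribosome footprint is the stretch of mRNA that a ribosome shields from nuclease, so a count per transcript follows both how much mRNA there is and how often it is translated. These 2 cannot be told apart here, and neither can fewer cells with the transcript and fewer footprints per cell.

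RefSeq places the QTRT1 gene on chromosome 19 of GRCh38.p14, the plus strand, at chr19:10701439-10713365, a span of 11927 bases. The first bases of its reading frame are shown as the start of the coding sequence that the row is taken to represent. They run from the first ATG after the RefSeq gene start (chr19:10701461-10701488), with the start codon in capitals.
QTRT1 coding start: ATGgcgggagcagctacccaggcttccc
The tables hold no positions within a transcript, so no count can be placed on these bases.

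The identity of the row rests on its length and on the low count it was selected on, and the files neither name its gene nor give its sequence. With a stop codon among its 404 codons the row would encode 403 residues, the length that the selection rule gives for the QTRT1 protein; that length was not checked against a protein sequence here. Another 84 rows have 404 codons, 77 of them with a count, so the length alone does not single out a gene. Of those, 61 had enough counts to be tested. Their log2 fold changes in the QTRT1 KO library over the mean of the other knockouts lay between -1.26 and 2.25, against -3.04 for uc002mpr.4. As that low value is what the row was selected on, this comparison gives its identity no independent support. Of all identifiers in the tables, 4 matched the RefSeq gene table, and none of the 6 rows did. For the same reason QTRT2, QTGAL, QTMAN and QNG1 (an enzyme that releases queuine for reuse) have no values here, although RefSeq lists all 4 genes.

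Footprints on uc002mpr.4 were scarce in the QTRT1 KO library and plain in all others. The row had 18 counts in the QTRT1 KO library, against 309 and 98 counts in the QTGAL KO replicates 1 and 2 and 191 and 260 counts in the QTMAN KO replicates 1 and 2. This is 1.28 CPM (counts scaled to library size) in the QTRT1 KO library (95% exact Poisson interval 0.758 to 2.02), against 12.9 (11.5 to 14.5) and 8.24 (6.69 to 10.04) CPM in the QTGAL KO replicates and 9.99 (8.62 to 11.5) and 10.6 (9.38 to 12.0) CPM in the QTMAN KO replicates. The QTRT1 KO value lies below each of the other 4, and its interval does not reach any of theirs. The intervals cover counting error only. No molecular identifiers are mentioned and amplified reads are not independent molecules, so the intervals may be too narrow even for counting error.

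The QTRT1 KO level was 12.2% of the mean of the other 4 libraries, 10.4 ± 1.94 CPM (SD, n = 4). By genotype the other means were 10.6 ± 3.32 CPM in QTGAL KO and 10.3 ± 0.453 CPM in QTMAN KO (SD, n = 2 each). Footprints were thus fewer but not at 0 in the knockout: the 18 counts leave a level of at least 0.758 CPM by the lower end of the counting interval. The source of the remaining counts was not tested. The log2 fold change from a fit of all libraries was -3.04 ± 0.35 (SE) over both other knockouts, -3.07 ± 0.36 over QTGAL KO and -3.01 ± 0.36 over QTMAN KO. These comparisons share the same single QTRT1 KO library, whose own spread is unknown and was taken to equal that of the others.

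**Figure D1:**
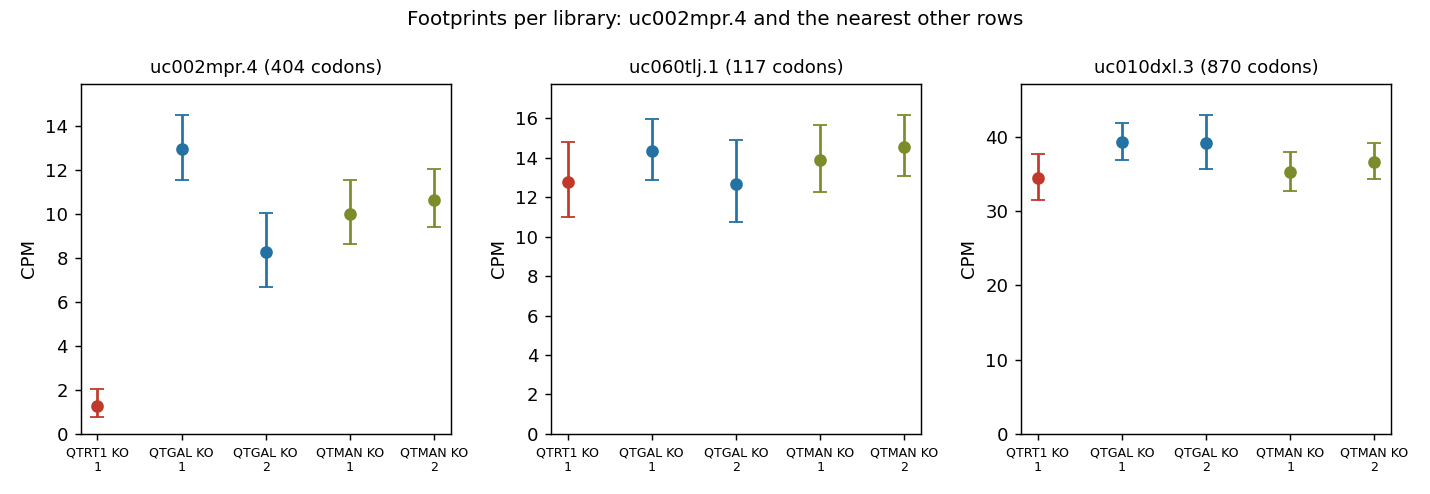
Footprint level in CPM (linear axis from 0) per library for uc002mpr.4 and for the nearest row on either side that is not nested and has at least 100 counts; points are libraries and bars are 95% exact Poisson intervals. The QTRT1 KO point of uc002mpr.4 sits at 1.28 CPM, below the other libraries at 8.24 to 12.9 CPM, while the points of the neighbouring rows lie close together.

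Per coding length, uc002mpr.4 was an ordinary transcript in the QTGAL and QTMAN knockouts and a sparse one in the QTRT1 knockout. Its density was 3.17 CPM per 1000 codons in the QTRT1 KO library, against 32.0 and 20.4 in the QTGAL KO replicates and 24.7 and 26.3 in the QTMAN KO replicates. Among the 60966 tested rows this density was higher than that of 14.0% of rows in the QTRT1 KO library, against 69.7% and 59.4% in the QTGAL KO replicates and 63.7% and 65.5% in the QTMAN KO replicates.

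All 5 shorter rows were low in the same library, as the nesting rule favours. The longest, uc060tlp.1 of 226 codons, had 11 counts in the QTRT1 KO library, against 158 and 56 in the QTGAL KO replicates and 122 and 148 in the QTMAN KO replicates. The row uc060tlq.1, of 203 codons, had 9 counts in QTRT1 KO, against 119 and 34 in QTGAL KO and 99 and 117 in QTMAN KO. The row uc060tlr.1, of 180 codons, had 8 counts in QTRT1 KO, against 136 and 39 in QTGAL KO and 93 and 126 in QTMAN KO. In each of the 3 rows the QTRT1 KO count is the lowest, well under the next one, which is QTGAL KO replicate 2. The row uc060tls.1, of 123 codons, had 3 counts in QTRT1 KO, against 48 and 17 in QTGAL KO and 22 and 41 in QTMAN KO. The row uc060tlu.1, of 137 codons, had 3 counts in QTRT1 KO, against 111 and 27 in QTGAL KO and 47 and 76 in QTMAN KO. Their log2 fold changes over both other knockouts ran from -3.86 for uc060tlu.1 to -2.80 for uc060tlq.1. The counts of the 6 rows are not independent, since overlapping transcripts may share footprints.

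The count of a shorter row relative to that of uc002mpr.4 was not part of the selection beyond its limit of 100%. Nothing in the tables places the shorter rows inside uc002mpr.4, so these shares compare counts between rows and not positions along a transcript. The uc060tlp.1 count was 61.1% of the uc002mpr.4 count in the QTRT1 KO library (95% exact Clopper-Pearson interval 35.7% to 82.7%), against 51.1% and 57.1% in the QTGAL KO replicates and 63.9% and 56.9% in the QTMAN KO replicates. For uc060tlq.1 and uc060tlr.1 the QTRT1 KO shares were 50% and 44.4%, against ranges of 34.7% to 51.8% and 39.8% to 48.7% over the other 4 libraries. For uc060tls.1 the share was 16.7% in QTRT1 KO, against 11.5% to 17.3% elsewhere. In these 4 rows the QTRT1 KO share falls within the range of the other libraries.

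The exception was uc060tlu.1, whose count was 16.7% of the uc002mpr.4 count in the QTRT1 KO library, against 35.9% and 27.6% in the QTGAL KO replicates and 24.6% and 29.2% in the QTMAN KO replicates. The QTRT1 KO share is the lowest of the 5, but it rests on 3 counts against 18 on uc002mpr.4. Its interval of 3.58% to 41.4% holds all other values. All intervals of shares treat the counts of a shorter row as part of the uc002mpr.4 counts, which is not known here. They also leave out the counting error of the shares they are set against, so whether the share differs cannot be told. In the QTGAL and QTMAN libraries uc060tls.1, with 30.4% as many codons as uc002mpr.4, had 11.5% to 17.3% of its count, while uc060tlp.1, with 55.9% as many codons, had 51.1% to 63.9%.

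**Figure D2:**
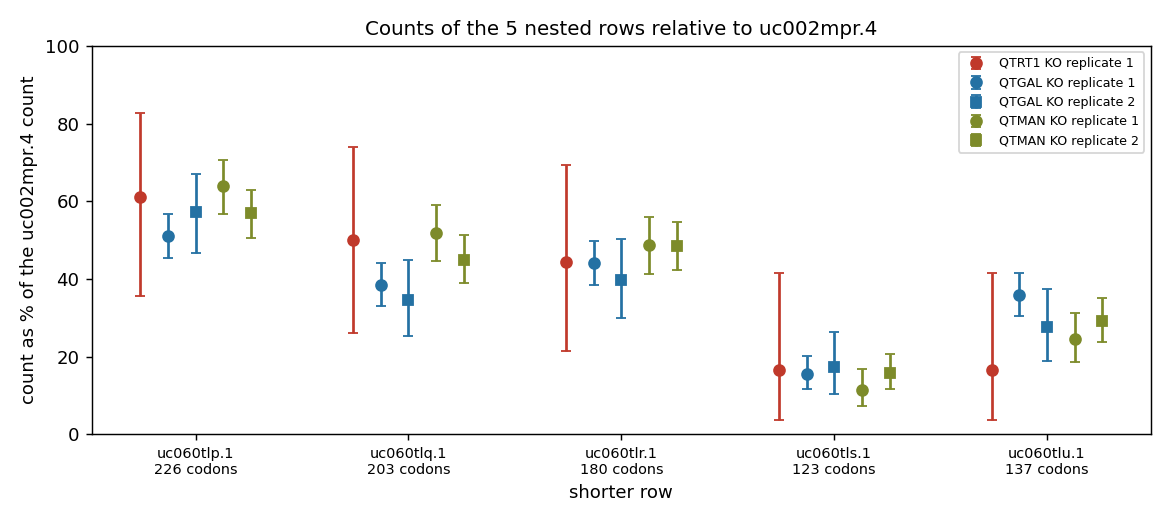
Count of each of the 5 nested rows as a percent of the uc002mpr.4 count in the same library (vertical axis, 0 to 100%); points are libraries, bars 95% exact Clopper-Pearson intervals. The QTRT1 KO bars are wide, as they rest on 18 counts, and each spans the points of the other 4 libraries. All bars treat the counts of a nested row as part of the uc002mpr.4 counts, an assumption that was not checked.

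Around the 6 member rows, none of the 100 other tested rows was as low. This split is partly set by the nesting rule, which admits only rows that do not exceed the uc002mpr.4 count in any library. The nearest other row before uc002mpr.4 with at least 100 counts, uc060tlj.1 of 117 codons, stood at 12.8 CPM in QTRT1 KO, against 14.4 and 12.7 CPM in the QTGAL KO replicates and 13.9 and 14.6 CPM in the QTMAN KO replicates. The nearest one after it, uc010dxl.3 of 870 codons, stood at 34.5 CPM in QTRT1 KO, against 39.3 and 39.2 CPM in QTGAL KO and 35.3 and 36.7 CPM in QTMAN KO. The log2 fold change over both other knockouts was -0.12 for either row, against -3.04 for uc002mpr.4. The 100 tested rows around the 6, between rows 162532 and 162714, ran from -1.81 to 0.57 with a median of -0.25. Of these rows 19 lay above 0. Relative to the median of the 100 rows the uc002mpr.4 value was -2.79.

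**Figure D3:**
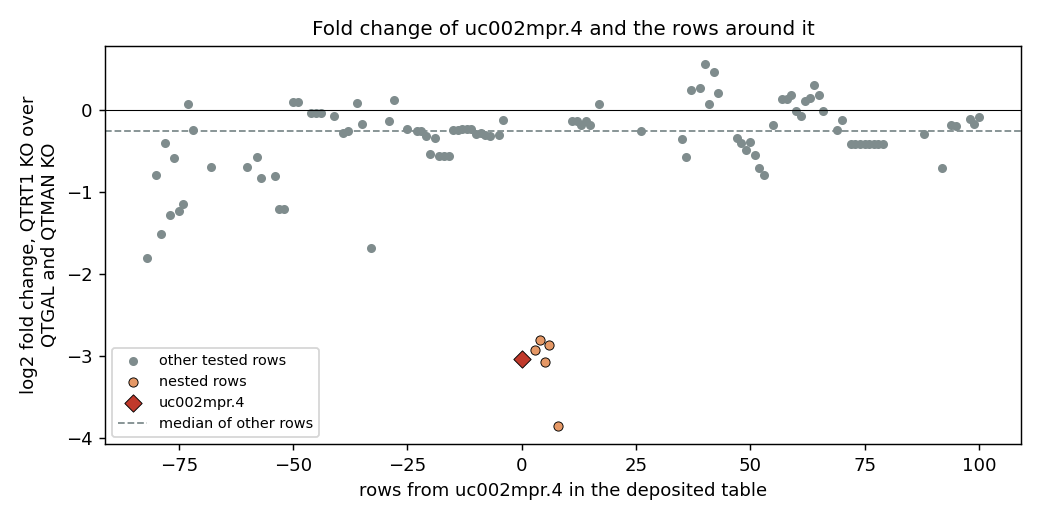
Log2 fold change of QTRT1 KO over the mean of QTGAL KO and QTMAN KO (vertical axis) against the distance in rows from uc002mpr.4 in the deposited table; points are tested rows and the dashed line is the median of the 100 other rows, -0.25. The 6 member rows lie between -3.86 and -2.80, below all 100 others, whose lowest value is -1.81. The nesting rule favours low values in the shorter rows.

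The place of uc002mpr.4 among all tested rows was as follows. Of the 60960 tested rows outside the member rows, 119 had a log2 fold change at or below -3.04. These were mostly sparse rows, with a median of 0.485 CPM over the QTGAL and QTMAN libraries, and 7 of them averaged at least 5 CPM there. Of the 9682 rows within 1.5-fold of the uc002mpr.4 level, 1% lay below -0.77 and 1% above 0.77, with a median of -0.02. At or below -3.04 were 3 of them, uc002flb.5, uc059yhm.1 and uc002fld.3, named after their values were seen, at -5.18, -4.47 and -4.30. This ranking describes the contrast on which the row was selected and is no test of it. Rows of overlapping transcripts may share footprints, so these are counts of rows and not of independent transcripts.

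**Figure D4:**
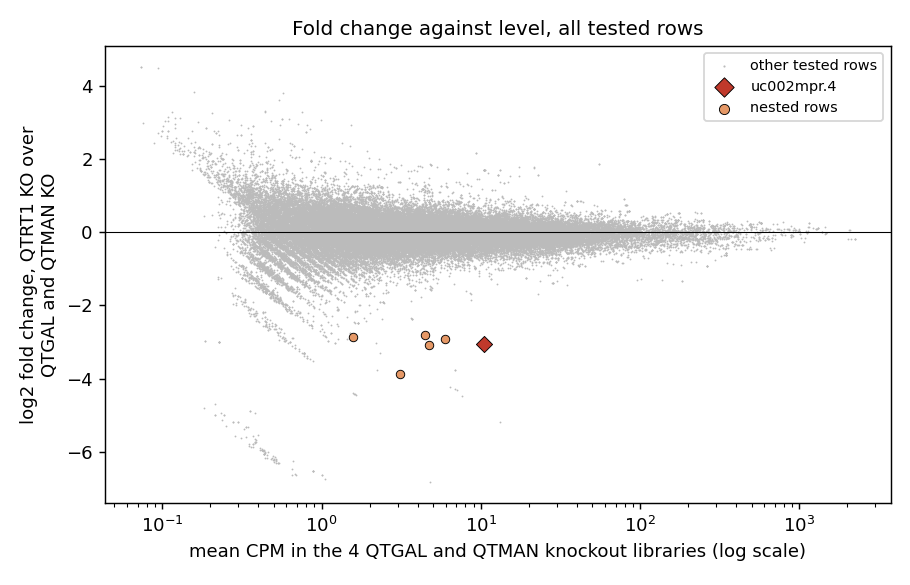
Log2 fold change of QTRT1 KO over the mean of QTGAL KO and QTMAN KO (vertical axis) against the mean CPM over the 4 QTGAL and QTMAN libraries (log axis) for all 60966 tested rows. The diamond, uc002mpr.4 at -3.04 and 10.4 CPM, lies far under the cloud at its level, and the nested rows lie beside it at lower CPM.

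The comparison of QTGAL KO with QTMAN KO leaves the QTRT1 KO value out of the contrast and was tested. It asks whether loss of one or the other sugar-adding enzyme left a different footprint level on the transcript of the enzyme that acts before both. The QTRT1 KO library still entered the filter and the scaling of the fit. The means were 10.6 ± 3.32 CPM in QTGAL KO and 10.3 ± 0.453 CPM in QTMAN KO (SD, n = 2 each), and the libraries overlap, with the QTGAL replicates on either side of both QTMAN replicates. The log2 fold change was 0.07 ± 0.20 (SE, edgeR quasi-likelihood adjusted p = 0.978), with a 95% interval of -0.37 to 0.50. A ratio between 0.774 and 1.42 is thus compatible with these libraries, which does not show that the levels are equal. This interval uses the total degrees of freedom of the fit, which include information on spread borrowed from other rows. On the 2 residual degrees of freedom alone the same SE would give a wider interval. The 5 nested rows lay between -0.29 and 0.37 with edgeR adjusted p-values of 0.9 or more. None of the 6 rows was called, against a background of 0% (0 of 60966 rows called by edgeR; 3954 rows, 6.49%, had an unadjusted p under 0.05, and DESeq2 called 12).

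The direction of this small difference turned on which QTGAL library was used. Without QTGAL KO replicate 1 the log2 fold change was -0.32, and without replicate 2 it was 0.33. Replicate 1 was 1.57 times replicate 2 on uc002mpr.4, and their counting intervals do not overlap. The QTMAN replicates differed by less, at 9.99 and 10.6 CPM. The gap between the QTGAL replicates, 0.62 on the log2 scale with a pseudocount of 0.5 CPM, was larger than that of 97.5% of the 9682 rows of like level, whose median gap was 0.17. It appeared in all 6 rows, whose counts are not independent, with ratios of 1.41 to 2.05 between replicate 1 and replicate 2. The neighbouring rows uc060tlj.1 and uc010dxl.3 had ratios of 1.13 and 1.003. Both QTGAL values nevertheless lay well above the QTRT1 KO value.

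Over the 5 libraries, the 2 rows picked as most like uc002mpr.4 in pattern were uc003xqp.5, of 269 codons, and uc003ysh.2, of 184 codons. Only 1 row was taken per 20 neighbouring rows, so the second pick need not be the second most similar row. Likeness was the root mean square difference between the log2 CPM profiles, with a pseudocount of 0.5 CPM, after each was centred on its own mean. The 27200 rows considered were more than 20 rows away and reached 5 CPM in QTGAL or QTMAN KO. The difference was 0.324 for uc003xqp.5 and 0.494 for uc003ysh.2. The first stood at 0.497 CPM in QTRT1 KO, against 6.82 and 4.12 CPM in the QTGAL KO replicates and 9.63 and 7.07 CPM in the QTMAN KO replicates. The second stood at 2.42 CPM in QTRT1 KO, against 9.58 CPM in both QTGAL KO replicates and 5.91 and 9.73 CPM in the QTMAN KO replicates. Both were lowest in the QTRT1 KO library, as the measure favours, and uc003xqp.5 shared the lower value in QTGAL replicate 2 while uc003ysh.2 did not. The likeness was not tested, and the files name neither gene.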

How the data were processed

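In each of the 5 deposited tables a transcript identifier has a length and a raw ribosome footprint count, which the authors left without normalization. The submitters' processing notes name CASAVA, bcl2fastq 2.19, STAR 2.7.0a and hg38; how footprints were counted, and on which annotation, strand and read lengths, is not given in the sources used here. The deposited length column, a value of another kind than a count, was read as codons. It is given for 93916 rows, and rows without it held no counts.

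CPM values were computed from the counts and TMM-scaled library totals (factors 0.967 to 1.02). Rows passing filterByExpr by genotype (60966, including all 6 member rows) were fitted with edgeR 4.0.16 in R 4.3.3: glmQLFit with 1 mean per genotype over all 5 libraries, 2 residual degrees of freedom, and glmQLFTest with Benjamini-Hochberg adjustment at 0.05. A log2 fold change divided by the square root of F gave its SE. DESeq2 1.42.0 was an alternative. Replicates were numbered in accession order.

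The member rows, rules and alternatives were chosen with earlier results of these data known. The naming rule took the member rows, the nearest other row on each side with at least 100 counts, and the 2 rows with the most similar profile.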

Additional observations from a re-analysis of the deposited data

How the results depend on the processing

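The log2 fold change of uc002mpr.4 in QTRT1 KO over both other knockouts stayed between -3.17 and -2.79 under all 11 alternatives. These were other scalings, other filters, subtraction of the neighbouring rows' median, and each QTGAL or QTMAN library left out. Each move was smaller than the 0.329 SD of log2 CPM within genotypes, a wide yardstick that comes mostly from the gap between the QTGAL replicates. Without 1 QTGAL or QTMAN library the fold change ranged from -3.17 to -2.84. That of uc060tlu.1 moved to -3.52 without QTGAL replicate 1. The QTGAL against QTMAN difference on uc002mpr.4 was called under none of the 10 alternatives; without 1 library it ranged from -0.32 to 0.33 and turned negative only without QTGAL replicate 1. DESeq2 gave it an unadjusted p of 0.851 and no adjusted p, as its filter left 4231 rows with one. With the QTGAL KO and QTMAN KO libraries only the difference was 0.07 (edgeR adjusted p = 0.978). With the replicate block it was 0.04 (edgeR adjusted p = 0.971). Nothing in the labels pairs same-numbered libraries, whose deviations correlated at 0.187 over 2 groups of 2. The number of rows called between QTGAL and QTMAN, 0 in the reported fit, was 12 with DESeq2, 282 with no filter and 47 with the replicate block, and between 11 and 493 without 1 library, the highest without QTMAN replicate 2; the cause was not tested. The nested rows numbered 5 with at least 10 counts required and within 20 rows, and with a pseudocount of 2 CPM the naming rule, which takes 1 row per 20 neighbouring rows, picked both similar rows again, although uc003ysh.2 ranked 3 before that step. The QTRT1 KO values rest on 1 library, with 18 counts behind the longest row and 3 behind the sparsest.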
